A study of Mus musculus with 18 samples.

Results

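The B cell identity and receptor signalling genes are a named list of 46 mouse genes that mark the B lineage, carry the B cell receptor signal or control B cell development. Each gene was read by the Affymetrix probe set with the highest mean among those annotated with its symbol alone. This gave 44 of the 18194 genes on the array, and Lyn and Cd38 were not analysed here. Of the 44, 40 were tested, whose log2 signal reached 4.86 (the median over the whole value table) on 3 or more arrays. Cr2 reached that level on 0 arrays, Vpreb1 and Dntt on 1 each and Jchain on 2, so these 4 were not tested. Of the 40, 33 reached it on all 17 arrays, and Fcer2a reached it on 3.

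The B cell receptor is an immunoglobulin bound to the signal chains Cd79a and Cd79b. The kinases Syk, Blk and Btk and the adaptor Blnk pass its signal to phospholipase Plcg2, and co-receptors such as Cd22 and Cd72 dampen it. Pax5 and Ebf1 set up and maintain B cell identity, the recombinases Rag1 and Rag2 rearrange the receptor genes in precursor cells, and Prdm1 drives the turn to plasma cells.

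The cells were primary B-cell lymphomas of Eµ-myc mice on a C57/Bl6 background, in which an immunoglobulin enhancer drives Myc in B cells. All groups, the untreated one included, lacked Suv39h1, a methyltransferase of histone H3, and were transduced with Bcl2, which blocks apoptosis, and with Suv39h1-ERT2, in which the enzyme is fused to a receptor domain activated by 4-hydroxytamoxifen (4-OHT). From 3 lymphomas, numbered 4146, 4936 and 5043, the groups were the big and the small cells sorted from the outgrowth after adriamycin (ADR, a DNA-damaging drug) with 4-OHT (3 arrays each), the outgrowth after ADR alone (2 arrays), cells after 5 days of ADR with 4-OHT (3 arrays), cells after 5 days of ADR alone (3 arrays) and untreated cells (3 arrays). Outgrowths had 14 further days without the compounds. For lymphoma 5043 the array of the ADR outgrowth was empty, its label giving failed quality control. No group had 4-OHT alone. All groups carried the fusion protein, so its activation and 4-OHT itself cannot be told apart. The ages of the mice were not given. Values below are log2 signals, listed for lymphomas 4146, 4936 and 5043 in that order, and the ADR outgrowth has values for 4146 and 4936. Each probe set had been brought to the same median in every lymphoma before deposit, so differences in level between lymphomas are not in the values. The fits compare groups within a lymphoma. Counts of groups that do not overlap set the values of all lymphomas side by side, and counts within lymphomas are given with them.

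In a principal component analysis 3 arrays stood apart, labelled ADR 5 d of lymphoma 4936 (score 66.81 on the first component), small cells of 5043 (58.47) and big cells of 5043 (66.32), while the next highest score was 5.94. Xist, which coats the silent X chromosome, exceeded its lymphoma median by 5.70, 5.80 and 5.99 there. On the array labelled ADR+4-OHT 5 d of 4146 it lay at -3.49, against -0.72 to 2.72 on the other 13 arrays, so the identity of these 4 arrays is in doubt. B cell markers were present on all arrays: Cd79a lay at 6.05 to 8.04, Cd79b at 10.25 to 12.09, Pax5 at 5.36 to 6.44, Ebf1 at 6.09 to 8.42, Blnk at 10.50 to 12.80, Btk at 8.56 to 10.02 and Syk at 7.75 to 9.69. Ms4a1, the gene of CD20, reached the median level on 15 of 17 arrays. In such bulk RNA, fewer cells of a type and less RNA per cell cannot be told apart.

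Promoters are shown for Rasgrp2 and Cd22, the genes with the lowest p for ADR with 4-OHT against untreated cells, and for the neighbours Rag1 and Rag2, which lay lowest on the array ADR 5 d of 4936. They are RefSeq sequences of GRCm38.p6, reaching from upstream to shortly downstream of a transcript start, 5′ to 3′ on the strand of the gene. Capitals mark the letters TGGGAA, a core bound by Ikaros (on either strand, so also TTCCCA), and the letters TCCC and GGGA with any 2 letters between them, a core bound by Ebf1. Rasgrp2 has 2 windows, and the first of them and that of Rag2 hold none of these letters.
Rasgrp2, first window, chr19:6399625-6399924, plus strand: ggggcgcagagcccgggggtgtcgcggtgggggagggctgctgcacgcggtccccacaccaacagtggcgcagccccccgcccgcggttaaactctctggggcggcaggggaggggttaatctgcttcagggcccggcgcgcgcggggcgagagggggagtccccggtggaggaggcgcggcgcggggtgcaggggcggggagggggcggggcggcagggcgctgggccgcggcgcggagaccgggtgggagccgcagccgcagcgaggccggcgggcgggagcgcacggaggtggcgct
Rasgrp2, second window, chr19:6401455-6401754, plus strand: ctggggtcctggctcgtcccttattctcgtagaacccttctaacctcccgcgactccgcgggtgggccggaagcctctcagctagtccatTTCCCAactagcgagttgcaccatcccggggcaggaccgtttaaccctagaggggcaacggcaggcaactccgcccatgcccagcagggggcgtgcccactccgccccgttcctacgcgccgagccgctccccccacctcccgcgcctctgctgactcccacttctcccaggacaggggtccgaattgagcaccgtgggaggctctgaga
Cd22, chr7:30878979-30879278, minus strand: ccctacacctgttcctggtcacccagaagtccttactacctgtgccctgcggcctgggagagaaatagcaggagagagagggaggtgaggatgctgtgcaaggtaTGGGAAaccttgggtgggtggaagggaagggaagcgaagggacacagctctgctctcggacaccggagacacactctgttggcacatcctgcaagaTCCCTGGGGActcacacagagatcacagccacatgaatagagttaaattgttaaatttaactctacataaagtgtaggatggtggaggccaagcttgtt
Rag1, chr2:101649483-101649782, minus strand: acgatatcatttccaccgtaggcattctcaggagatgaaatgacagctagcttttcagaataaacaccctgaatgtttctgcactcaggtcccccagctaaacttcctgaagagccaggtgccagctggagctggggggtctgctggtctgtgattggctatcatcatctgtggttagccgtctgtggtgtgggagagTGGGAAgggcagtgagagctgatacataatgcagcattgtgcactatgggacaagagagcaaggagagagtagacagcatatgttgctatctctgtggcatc
Rag2, chr2:101624462-101624761, plus strand: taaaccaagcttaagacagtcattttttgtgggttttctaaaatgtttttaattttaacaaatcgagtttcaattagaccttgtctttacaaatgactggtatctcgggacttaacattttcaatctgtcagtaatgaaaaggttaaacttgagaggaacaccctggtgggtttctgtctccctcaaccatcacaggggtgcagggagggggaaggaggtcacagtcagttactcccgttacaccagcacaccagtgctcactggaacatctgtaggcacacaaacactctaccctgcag
Of the 44 genes, 37 had 46 promoter windows. The Ikaros letters lay in 12 of these windows (26.1%) and in 25.6% of all 32851 windows, the Ebf1 letters in 2 (4.35%, those of Cd22 and Foxo1) against 0.904%, and the octamer ATGCAAAT, read by Pou2f2 with Pou2af1, in 2 (4.35%, those of Blnk and Vpreb3) against 1.74%, on both strands, with no overlap between motifs in the windows shown. A match is a description of the letters only.

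**Figure D1:**
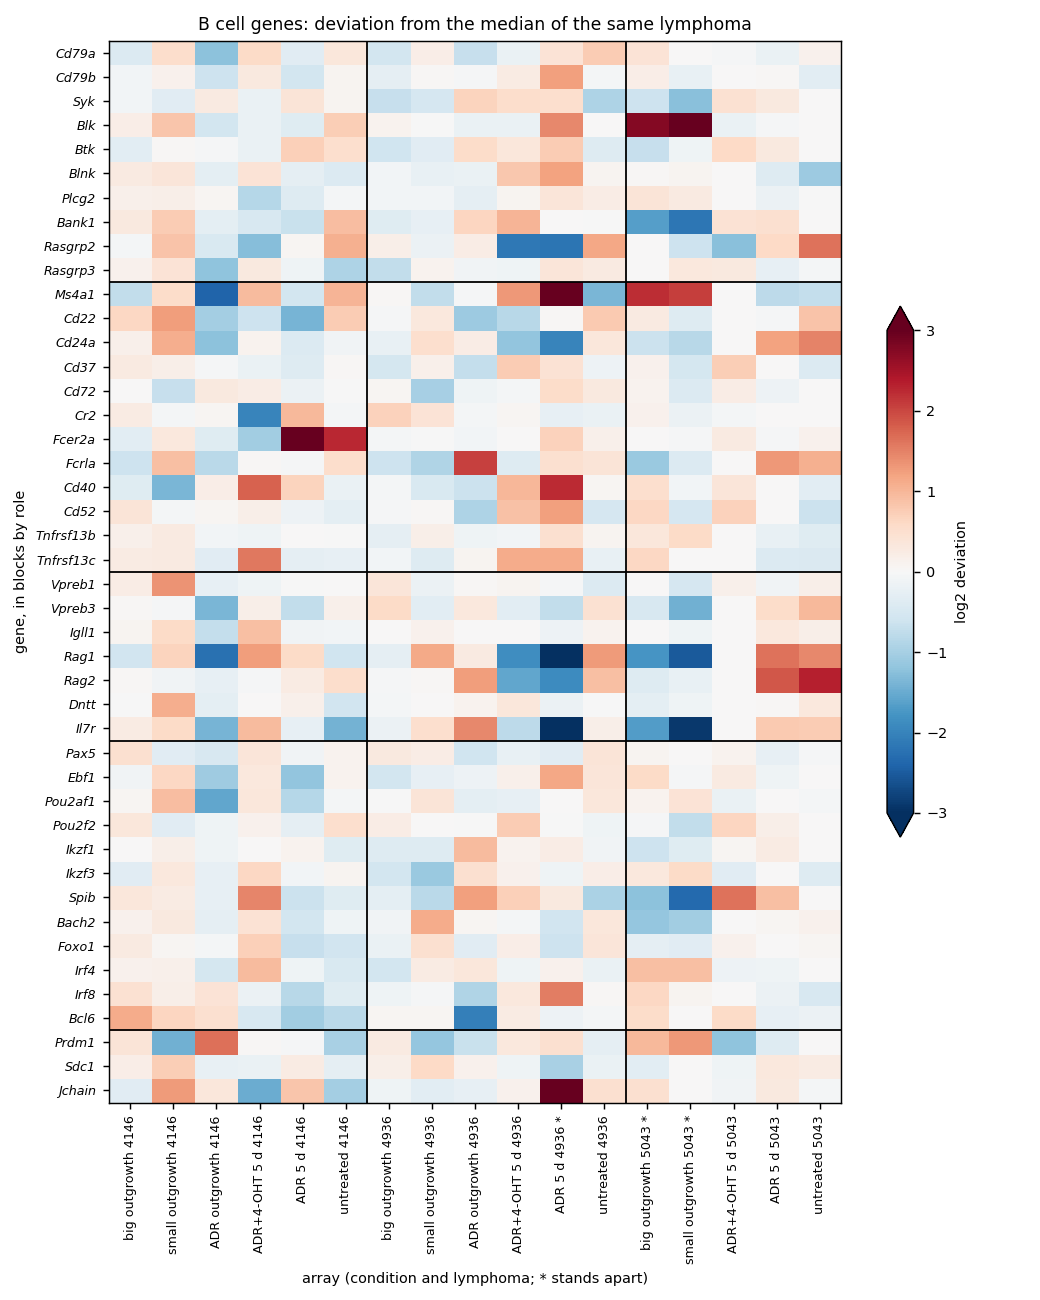
Each row is 1 of the 44 genes in blocks by role and each column 1 array, coloured by the log2 deviation from the median of the same lymphoma. The 3 columns marked * are the arrays that stood apart, where 14 of 132 values were 2 or more log2 units away, against 8 of 616 on the other 14 arrays.

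B cell genes varied more between arrays than tested genes in general. Over all 17 arrays the 40 tested genes had a median SD of 0.567 log2 units, against 0.327 for all 11897 tested genes, and 8 of 40 had an SD of at least 1, as did 4.35% of all. The 40 genes and all tested genes were not matched on signal level, and the part of signal level in these SDs was not tested. The widest spread was that of Ms4a1 (SD 1.98), Rag1 (1.56), Il7r (1.35), Rasgrp2 (1.10), Blk (1.06), Rag2 (1.05), Spib (1.04) and Fcer2a (1.01). Tnfrsf13b (0.26), Plcg2 (0.30) and Pax5 (0.32) varied least.

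Much of this spread lay on the 3 arrays that stood apart. There 10.6% of the values of the 44 genes were at least 2 log2 units from the lymphoma median, against 3.30% for all tested genes. On the other 14 arrays the shares were 1.30% and 0.36%. The ADR outgrowth of 4146, 1 of the 2 arrays of its group, had the most genes at least 1 unit below the lymphoma median. These were 10 of the 44, against 0.82% of all tested genes on that array. On ADR 5 d of 4936, small of 5043 and big of 5043, 5, 7 and 6 genes were that low, against 3.95%, 3.91% and 4.35%. On ADR 5 d of 4936, small of 5043 and big of 5043, in that order, Rag1 deviated by -3.43, -2.52 and -1.78, and Il7r, the interleukin 7 receptor of precursor B cells, by -3.33, -2.90 and -1.68. Both early B cell genes were thus low on all 3, and they were the 2 genes of the list at least 1 unit below on every one, as were 0.992% of all tested genes. Ms4a1 deviated by 6.51, 2.07 and 2.22, and Blk, a Src-family kinase of the receptor, by 1.44, 3.13 and 2.76. These were the 2 at least 1 unit above on every one, as were 2.61% of all. ADR 5 d of 4936 also had Jchain, the joining chain of secreted IgM and IgA, at 4.32, the T cell help receptor Cd40 at 2.24 and Rasgrp2 at -2.18. Some macrophage markers were high on it too, with Lyz2 at 14.49, Cd14 at 9.81, Csf1r at 9.48 and Adgre1 at 9.48 on ADR 5 d of 4936, against 5.51, 3.92, 5.70 and 4.70 in untreated cells of 4936. Of the 16 macrophage markers, 7 lay under 4.86 on all arrays. Some fibroblast and neutrophil markers were also high on ADR 5 d of 4936. Col1a2 had 10.51, Bgn 10.13, Sparc 9.23 and S100a8 7.38, against 4.75, 4.79, 4.86 and 3.06 in untreated cells of 4936. Others were not, with Pdgfra at 4.79 and S100a9 at 3.33, against 4.88 and 3.15. The Actb 3′ minus 5′ signal of ADR 5 d of 4936, 0.56, a sign of RNA quality, was the lowest of the 17 arrays. Small of 5043 had the transcription factor Spib at -2.34 and the adaptor Bank1 at -2.16. The part of these in the B cell values, and whether the cells on these arrays differ from their labels, were not tested.

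**Figure D2:**
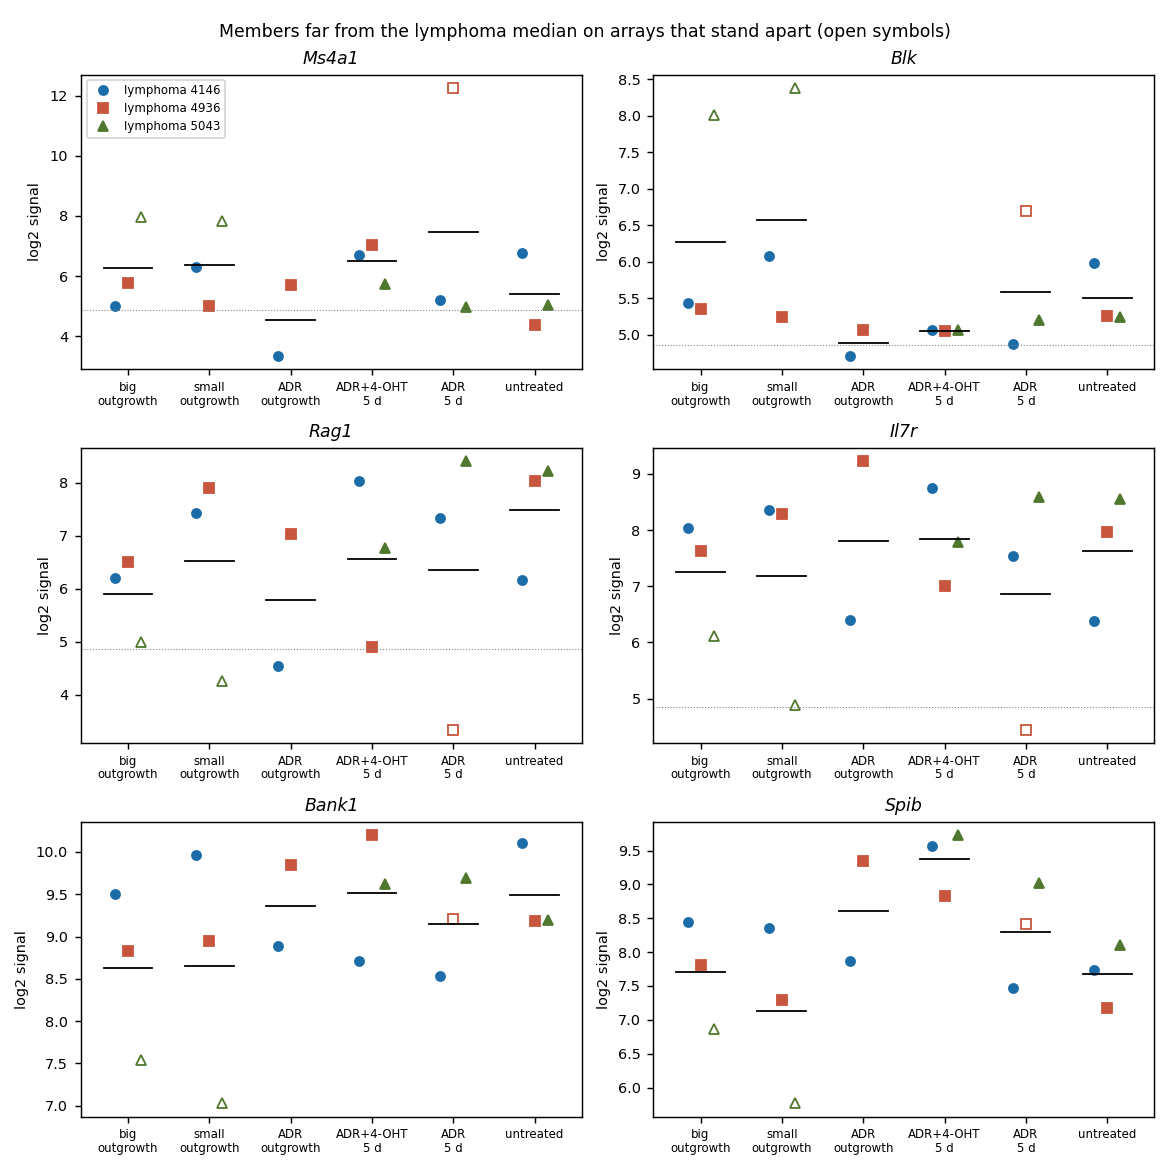
Log2 signal of genes that lay far from the lymphoma median on the arrays that stood apart (open symbols), in the 6 groups, with the group mean as a line and 1 symbol shape per lymphoma. Ms4a1 reaches 12.26 after 5 days of ADR in lymphoma 4936, and Rag1 and Il7r lie low on all 3 open symbols.

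When cells had received ADR with 4-OHT for 5 days, 1 of the 40 genes differed from untreated cells: Rasgrp2, an exchange factor that activates the GTPase Rap, fell. Its log2 signal was 7.47, 6.58 and 7.47 in ADR+4-OHT cells, against 9.80, 9.89 and 10.37 in untreated cells. All 3 treated arrays lay below all 3 untreated ones, by 2.33, 3.31 and 2.90 in the 3 lymphomas. The fitted difference was -2.85 (SE 0.56, 95% interval -4.08 to -1.62), a 7.21-fold lower signal, with an adjusted p of 0.0272 in limma over all genes. Of all 11897 genes 2.94% passed in this comparison, and 2.05% passed as lower. Without the 3 arrays that stood apart Rasgrp2 had -2.85 (SE 0.31, adjusted p = 0.00524), and without those and ADR+4-OHT 5 d of 4146 it had -3.09 (adjusted p = 0.00505). The call was lost without each lymphoma in turn (-3.11 without 4146, -2.62 without 4936, -2.82 without 5043), and without the untreated array of 4146, 4936 or 5043 or the ADR+4-OHT array of 4936 or 5043 (-2.70 to -3.08). Of the 4 Rasgrp2 probe sets fitted on their own, 2 fell, at -2.85 and -2.38 (adjusted p = 0.0312 and 0.0419), and the others had -2.25 and -0.40 (0.12 and 0.606). Rasgrp2 lies on chromosome 19 from 6398957 to 6415216 of GRCm38.p6, and both of its promoter windows are printed above.

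**Figure D3:**
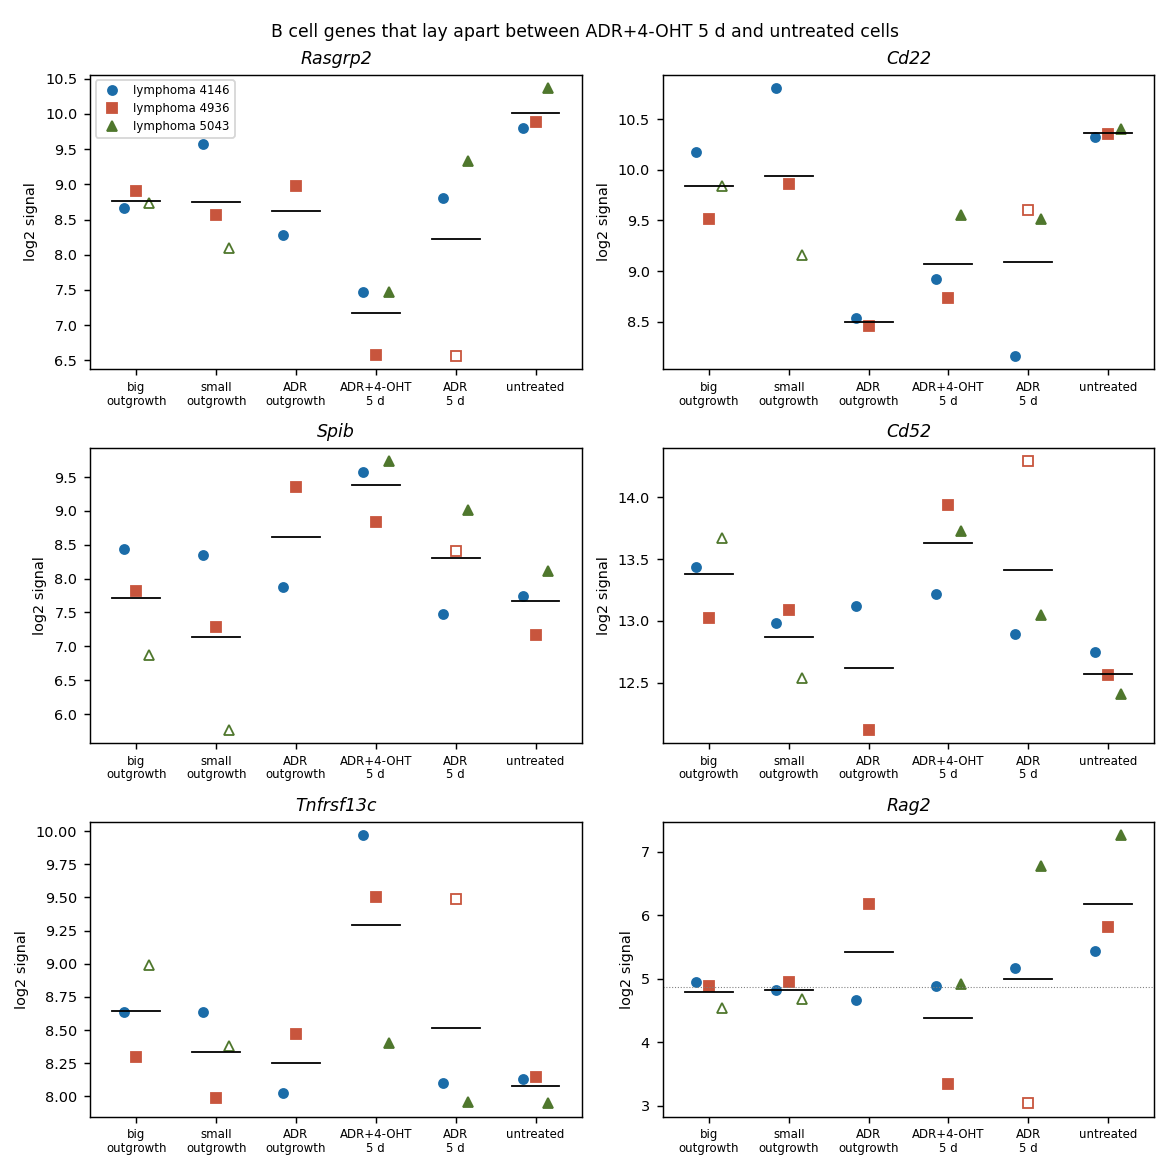
Log2 signal of 6 genes with low p whose groups did not overlap between ADR+4-OHT 5 d and untreated. Spib and Rag2 were taken after their values were seen, and Blnk, whose groups overlapped, is not shown. Each panel has the 6 groups, with the group mean as a line, 1 symbol shape per lymphoma and open symbols for the arrays that stood apart. Rasgrp2 lies at 6.58 to 7.47 after ADR with 4-OHT and at 9.80 to 10.37 in untreated cells, and the dotted line in the panel of Rag2 is the median of all values, 4.86.

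None of the other 39 genes passed in this comparison. Cd22, the sialic acid-binding inhibitor of the receptor, had 8.92, 8.73 and 9.55 after ADR with 4-OHT, against 10.33, 10.35 and 10.40 in untreated cells. The groups did not overlap, and the difference of -1.29 (SE 0.44) had an adjusted p of 0.136 in limma, or 0.0442 without the 3 arrays that stood apart. Without the 4 doubtful arrays, or with arrays weighted by quality, Cd22 did not pass. Tnfrsf13c, the receptor of the survival factor BAFF, had 9.97, 9.50 and 8.40 after ADR with 4-OHT, against 8.13, 8.15 and 7.95 in untreated cells (difference 1.21, SE 0.42, adjusted p = 0.139). Cd52, a small lipid-anchored surface peptide, had 13.22, 13.94 and 13.73 after ADR with 4-OHT, against 12.75, 12.56 and 12.41 in untreated cells. Its difference was 1.06 (SE 0.38, adjusted p = 0.152), or 1.35 (0.0219) without the 4 doubtful arrays. Cd52 did not pass without the 3 arrays that stood apart. Tnfrsf13c, with its highest value on the doubtful array of 4146, passed in none of these refits. In both genes the ADR+4-OHT values all lay above the untreated ones.

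Blnk had 12.01, 12.39 and 11.60 after ADR with 4-OHT, against 11.20, 11.67 and 10.50 in untreated cells. It lay higher in each lymphoma, while the groups overlapped, and its difference was 0.88 (SE 0.34, adjusted p = 0.184 in limma). Spib and Rag2 are given after their values were seen. Spib, an Ets factor of mature B cells, had 9.57, 8.83 and 9.73 after ADR with 4-OHT, against 7.74, 7.17 and 8.11 in untreated cells (difference 1.71, SE 0.67, adjusted p = 0.191). Rag2 had 4.88, 3.34 and 4.91 after ADR with 4-OHT, against 5.43, 5.81 and 7.26 in untreated cells (difference -1.79, SE 0.72, adjusted p = 0.199, or -2.42 and 0.00678 without the 4 doubtful arrays). For both the groups did not overlap. Of the ADR+4-OHT values of Rag2, 1 lay under 4.86, the median of all values, and 4.88 and 4.91 lay next to it. They may not be above background, so the differences of Rag2 are no measured size. Rag2 did not pass without the 3 arrays that stood apart. The core members Cd79a (-0.29, SE 0.33), Cd79b (0.27, SE 0.33), Syk (0.54, SE 0.33), Btk (0.21, SE 0.28), Pax5 (-0.07, SE 0.19), Ebf1 (0.10, SE 0.49) and Ms4a1 (1.10, SE 1.63) did not pass. Their 95% intervals were narrowest for Pax5, at -0.50 to 0.35, and widest for Ms4a1, at -2.46 to 4.67, so they do not show equal levels. The 4 Syk probe sets disagreed in sign. The other factors Ikzf1, Ikzf3, Bach2, Foxo1, Irf4, Irf8, Bcl6, Pou2f2 and Pou2af1 and the signalling genes Blk, Plcg2, Bank1 and Rasgrp3 lay between -0.45 and 0.46. Of the remaining surface genes Cd40 had the highest difference, 1.19 (SE 0.54, adjusted p = 0.26 in limma), and Fcer2a the lowest, -1.11 (SE 0.70), though its ADR+4-OHT values all lay under 4.86, with Cd24a, Cd37, Cd72, Fcrla and Tnfrsf13b between them. Of the remaining precursor genes Rag1 had -0.91 (SE 1.40), Il7r 0.21 (SE 1.25), Vpreb3 -0.57 (SE 0.51) and Igll1, a surrogate light chain, 0.24 (SE 0.28).

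Counted over the list, 10 of 40 genes had groups that did not overlap between ADR+4-OHT and untreated cells, against 31.1% of all genes. Within lymphomas, 9 lay higher and 5 lower in all 3, and 42% of all genes had 1 sign in all 3. Of the 40, 8 (20%) had an unadjusted p under 0.05, against 19.2%. The median difference was 0.15 for the 40 and 0.00 for all genes. By role, 10 of 12 transcription factors lay above 0 (median 0.26, or 8 with a median of 0.08 without the 4 doubtful arrays). So did 6 of 10 receptor chain and signalling genes (0.12), 7 of 11 surface genes (0.04) and 1 of 2 plasma cell genes (0.03). Of the precursor genes 2 of 5 did (-0.57), or 0 (-0.96) without the 4 doubtful arrays. Without the 3 arrays that stood apart 2 of 40 passed (Cd22 and Rasgrp2), against 3.76% of all genes, without the 4 doubtful arrays 3 (Cd52, Rag2 and Rasgrp2), against 6.55%, and with arrays weighted by quality 4 (Blnk, Cd52, Rag2 and Rasgrp2), against 10.9%.

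**Figure D4:**
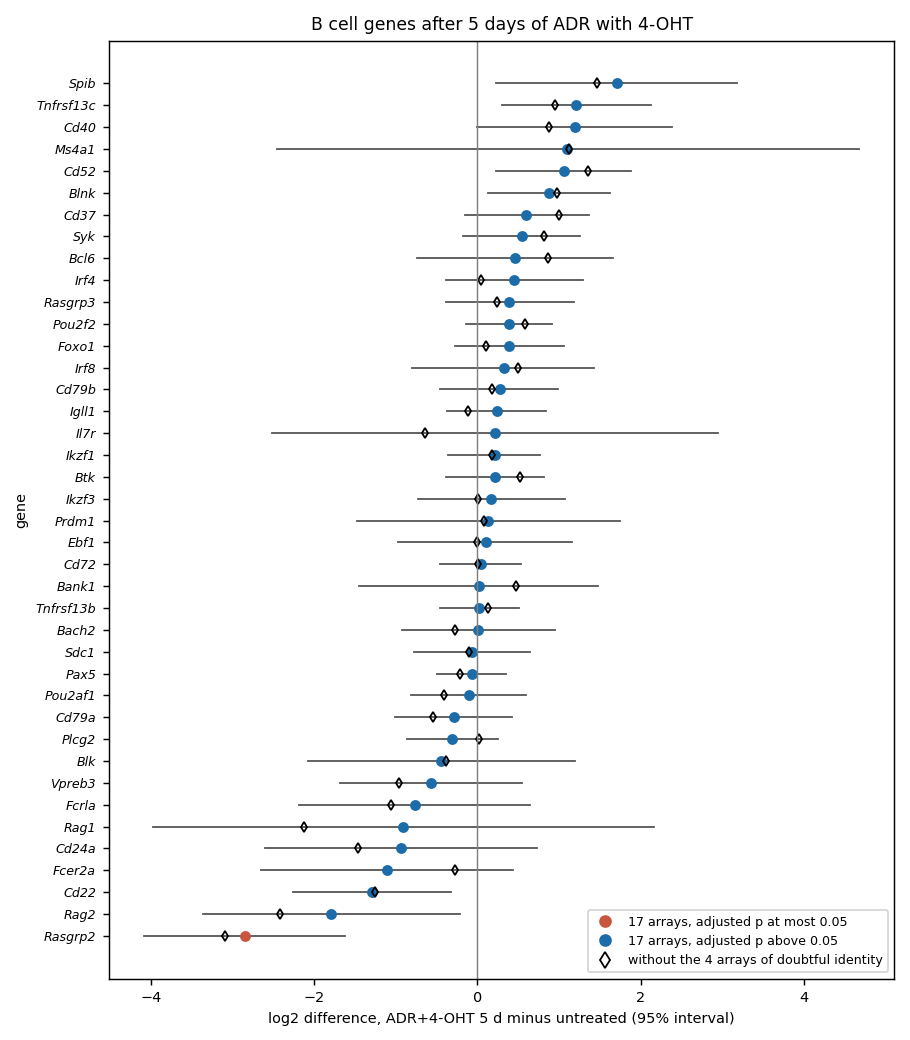
Fitted log2 difference of each of the 40 genes for ADR+4-OHT 5 d minus untreated, with its 95% interval, red where the adjusted p is at most 0.05. The diamonds are the same difference without the 4 doubtful arrays, and Rasgrp2 lies lowest at -2.85.

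The log2 of the summed signal of macrophage markers was 10.33 to 12.97 after ADR with 4-OHT and 8.83 to 9.01 in untreated cells. Of 9 tested markers 1 rose, the lysozyme gene Lyz2 (5.87, SE 1.15, adjusted p = 0.0272 in limma). Lyz2 had 10.17, 12.55 and 7.93 after ADR with 4-OHT, the highest of these markers in 4146 and 4936, so it weighs most in those sums. In untreated cells it had 4.75, 5.51 and 2.79. Of these, 4.75 and 2.79 lay under 4.86 and may not be above background, so 5.87 is no measured size. The median deviation of the list was -0.03 to 0.17 after ADR with 4-OHT and -0.23 to -0.04 in untreated cells. Of the 16 markers, 7 (Mrc1, Cd163, C1qa, C1qb, C1qc, Mertk and Marco) lay under 4.86 on all arrays. The summed fibroblast signal was 11.18 to 12.81 after ADR with 4-OHT and 10.79 to 11.73 in untreated cells, with 0 of 8 called. Vim had the highest signal of the fibroblast markers on every array, so it weighs most in this and the later fibroblast sums. It lay at 10.90, 12.24 and 12.69 after ADR with 4-OHT, against 11.57, 10.55 and 11.41 in untreated cells. Of the markers of other cells, 0 of 7 T cell, 1 NK cell, 3 dendritic cell, 4 neutrophil, 1 erythroid and 2 endothelial genes tested passed in any of the 8 comparisons in limma, with differences here of -1.57 to 0.28 for T cells and -0.33 to 1.63 for neutrophils. Of these 144 tests, 13 had an unadjusted p under 0.05, and 0 passed with array weights. The 3′ minus 5′ signal of the Actb control probes was 1.17 to 1.51 after ADR with 4-OHT and 1.39 to 1.65 in untreated cells. The part of these in the values of the B cell genes was not tested.

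After 5 days of ADR alone, none of the 40 genes passed against untreated cells, and 0% of all genes did. Rasgrp2 had 8.80, 6.56 and 9.33 after ADR, against 9.80, 9.89 and 10.37 in untreated cells. It lay lower in all 3 lymphomas, most on the array that stood apart, and the difference was -1.80 (SE 0.56, adjusted p = 0.329 in limma), or -1.09 without the 3 arrays. Cd22 had 8.16, 9.60 and 9.51 after ADR, against 10.33, 10.35 and 10.40 in untreated cells (difference -1.27, SE 0.44, adjusted p = 0.365). Cd52 had 12.89, 14.29 and 13.05 after ADR, against 12.75, 12.56 and 12.41 in untreated cells (0.84, adjusted p = 0.437). Syk had 9.39, 9.51 and 9.31 after ADR, against 9.10, 8.09 and 9.01 in untreated cells (0.67, SE 0.33, adjusted p = 0.453). In all of these the groups did not overlap. A second Syk probe set of similar mean had 8.38, 8.61 and 8.68 after ADR, against 8.31, 9.36 and 8.82 in untreated cells. Its groups overlapped, and it lay lower after ADR in 4936 and 5043. Ms4a1 lay at 5.20, 12.26 and 4.96 after ADR, against 6.76, 4.39 and 5.03 in untreated cells, so that its difference of 2.08 (SE 1.63) turned to -0.20 without the 3 arrays. Groups did not overlap for 6 of 40 genes, against 22.2% of all, and 3 (7.5%) had an unadjusted p under 0.05, against 11.3%. Within lymphomas, 7 of 40 lay higher and 10 lower in all 3, and 41.3% of all genes had 1 sign in all 3. The 5 tested precursor genes lay below 0 (median -0.84), but without the 3 arrays the sign of 3 turned: Rag1 had 0.37 in place of -1.12, Il7r 0.42 in place of -0.78 and Igll1 0.03 in place of -0.04, while Rag2 had -0.39 and Vpreb3 -0.62. Of the core genes, Blnk had 0.65 (SE 0.34), Btk 0.55 (SE 0.28), Cd79b 0.33 (SE 0.33), Ebf1 -0.21 (SE 0.49), Pax5 -0.38 (SE 0.19) and Cd79a -0.44 (SE 0.33), with adjusted p from 0.459 to 0.88 in limma. The summed macrophage signal was 9.95 to 14.76 after ADR, against 8.83 to 9.01 in untreated cells. The summed fibroblast signal was 12.02 to 12.93 after ADR, against 10.79 to 11.73 in untreated cells, with differences of 0.01 to 3.86 and 0 of 8 called. The Actb 3′ minus 5′ signal was 0.56 to 1.17 after ADR and 1.39 to 1.65 in untreated cells, and their part was not tested.

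Adding 4-OHT to ADR asks what 4-OHT, which activates the fusion protein, adds to the drug. None of the 40 genes passed between ADR with 4-OHT and ADR alone, and 0% of all genes did. Foxo1, a factor of early B cells that activates the Rag genes, had 10.38, 9.86 and 9.79 with 4-OHT, against 8.98, 9.06 and 9.68 with ADR alone. The groups did not overlap, with a difference of 0.77 (SE 0.31, adjusted p = 0.328 in limma). Pou2f2, the octamer factor Oct-2, had 7.13, 7.77 and 7.65 with 4-OHT, against 6.72, 6.99 and 7.17 with ADR alone (0.55, SE 0.24, adjusted p = 0.369). Fcer2a, the low-affinity IgE receptor CD23, had 3.12, 4.18 and 4.43 with 4-OHT, against 7.44, 4.87 and 4.14 with ADR alone. All of its values with 4-OHT lay under 4.86 and may not be above background, so the fitted -1.57 (SE 0.70, adjusted p = 0.388) is no measured size, and it rests on 4146. Rasgrp2 had -1.05 (SE 0.56, adjusted p = 0.457), or -1.76 (0.251) without the 3 arrays. Groups did not overlap for 2 of 40 genes, against 22.5% of all, and 3 had an unadjusted p under 0.05, against 12.5% of all. Of the 12 transcription factors 10 lay above 0, with a median of 0.30. Without the 3 arrays 11 did, with a median of 0.46, and without the 4 doubtful arrays 9, with 0.24. Of the 5 precursor genes 4 lay above 0 (median 0.27), but 2 (-0.21) without the 3 arrays and 0 (-1.11) without the 4. Within lymphomas, 7 of 40 lay higher and 1 lower in all 3, and 38.9% of all genes had 1 sign in all 3. Of the core genes, Pax5 had 0.31 (SE 0.19), Ebf1 0.30 (SE 0.49), Blnk 0.22 (SE 0.34), Cd79a 0.15 (SE 0.33), Cd79b -0.07 (SE 0.33), Syk -0.13 (SE 0.33), Btk -0.34 (SE 0.28) and Ms4a1 -0.98 (SE 1.63), with adjusted p from 0.536 to 0.949 in limma. The Actb 3′ minus 5′ signal was 1.51, 1.17 and 1.28 with 4-OHT, against 1.08, 0.56 and 1.17 with ADR alone, higher in each lymphoma. The summed macrophage signal was 10.33 to 12.97 with 4-OHT and 9.95 to 14.76 with ADR alone. The summed fibroblast signal was 11.18 to 12.81 with 4-OHT and 12.02 to 12.93 with ADR alone, with differences of -2.94 to 0.28 and 0 of 8 called. The part of these was not tested.

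In the outgrowth, none of the 40 genes passed between big and small sorted cells, and 0% of all genes did. Cd72, an inhibitory co-receptor, had 10.30, 10.34 and 10.38 in big cells, against 9.57, 9.28 and 9.87 in small cells. The big cells all lay above the small ones, by 0.76 (SE 0.23, adjusted p = 0.232 in limma). Pou2af1, the coactivator of the octamer factors, had 11.55, 11.48 and 11.60 in big cells, against 12.42, 11.88 and 11.90 in small cells (-0.52, SE 0.32, adjusted p = 0.637). Pou2f2 had 0.53 (adjusted p = 0.473) and Pax5 0.33 (0.617). Cd72 and Pou2af1 were the 2 of 40 genes whose groups did not overlap, against 21.7% of all genes, and 2 had an unadjusted p under 0.05, against 10.4%. Of the plasma cell genes, Prdm1 had 8.76, 8.64 and 9.34 in big cells, against 6.92, 7.20 and 9.66 in small cells, higher in 2 of 3 lymphomas (difference 0.99, SE 0.74, adjusted p = 0.713 in limma). Prdm1 lay lower in big cells in lymphoma 5043, whose big and small arrays are both among the 3 that stood apart. Sdc1, the plasma cell proteoglycan syndecan, had 8.06, 8.04 and 7.56 in big cells, against 8.60, 8.47 and 7.87 in small cells, lower in all 3 (-0.43, SE 0.33, adjusted p = 0.719 in limma). Jchain lay under 4.86 in big cells. Within lymphomas, 7 of 40 lay higher and 6 lower in all 3, and 41.1% of all genes had 1 sign in all 3. Without the 3 arrays that stood apart, the median of receptor chain and signalling genes was -0.28, in place of -0.03. That of surface genes was -0.28, in place of -0.10, and that of precursor genes -0.31, in place of -0.03. For transcription factors it was -0.06, in place of -0.12, and for plasma cell genes 0.57, in place of 0.28. Of the other core genes, Syk had 0.22 (SE 0.33), Blnk 0.00 (SE 0.34), Cd79b -0.03 (SE 0.33), Ms4a1 -0.12 (SE 1.63), Ebf1 -0.15 (SE 0.49), Btk -0.39 (SE 0.28) and Cd79a -0.43 (SE 0.33), with adjusted p from 0.689 to 0.999 in limma. Beside these values, the summed fibroblast signal was 12.83 to 14.64 in big cells and 10.63 to 12.17 in small cells. The summed macrophage signal was 9.59 to 10.43 in big cells and 8.94 to 9.60 in small cells, the Actb 3′ minus 5′ signal was 1.50 to 1.76 in big cells and 1.41 to 1.81 in small cells, and the part of these was not tested.

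**Figure D5:**
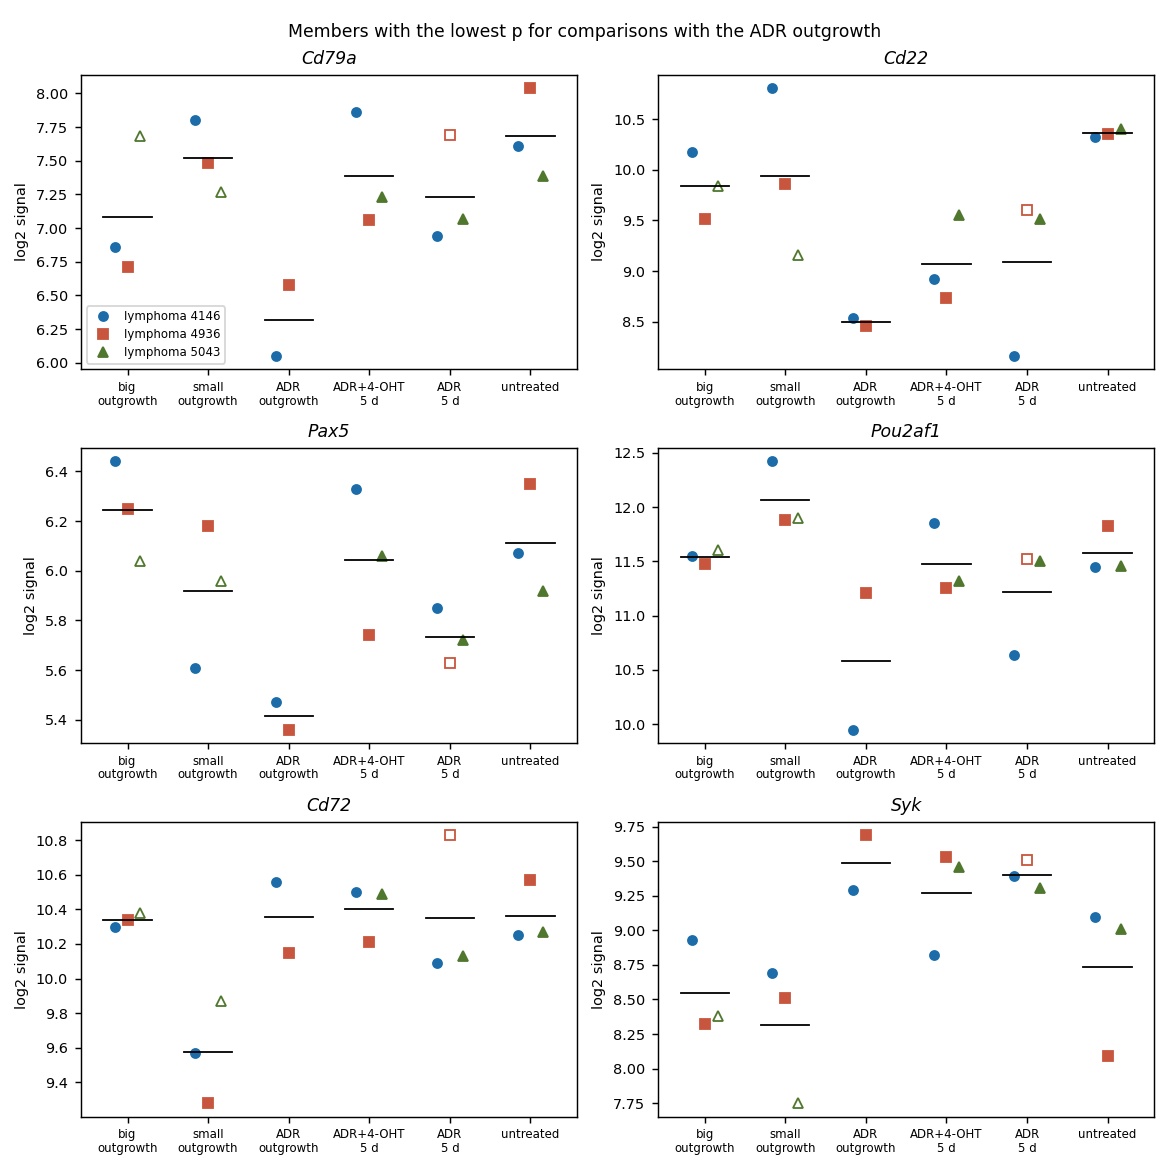
Log2 signal of 6 genes with low p in the comparisons with the ADR outgrowth, in the 6 groups, with the group mean as a line, 1 symbol shape per lymphoma and open symbols for the arrays that stood apart. Cd79a and Pax5 lie lowest in the ADR outgrowth, at 6.05 and 6.58 and at 5.47 and 5.36.

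Small cells, which had 4-OHT, were set against the outgrowth after ADR alone, of lymphomas 4146 and 4936. None of the 40 passed, and 0% of all genes did. Pou2af1 had 12.42, 11.88 and 11.90 in small cells, against 9.95 and 11.21 in the ADR outgrowth, a difference of 1.50 (SE 0.37, adjusted p = 0.243 in limma). Cd79a had 7.80, 7.48 and 7.27 in small cells, against 6.05 and 6.58 in the ADR outgrowth (1.23, SE 0.37, adjusted p = 0.274). The small cells lay above for both genes, with no overlap. Cd72 had 9.57, 9.28 and 9.87 in small cells, against 10.56 and 10.15 in the ADR outgrowth (-0.80, SE 0.26, adjusted p = 0.281). Syk had 8.69, 8.51 and 7.75 in small cells, against 9.29 and 9.69 in the ADR outgrowth (-1.13, SE 0.37, adjusted p = 0.281). Here the small cells lay below, again with no overlap. The second Syk probe set had 8.97, 9.38 and 8.43 in small cells, against 9.25 and 8.69 in the ADR outgrowth. Its sign differed between 4146 and 4936. Groups did not overlap for 10 of 40 genes, against 33% of all, and 7 (17.5%) had an unadjusted p under 0.05, against 13.4%. The median was 0.35 for the 40 and -0.01 for all genes. In the 2 lymphomas with both groups, 18 of 40 lay higher and 3 lower in each, and 56.7% of all genes had 1 sign in both. Of the other core genes, Ms4a1 had 1.90 (SE 1.86), Ebf1 0.71 (SE 0.55), Pax5 0.54 (SE 0.22), Blnk 0.48 (SE 0.39), Cd79b 0.37 (SE 0.38) and Btk -0.38 (SE 0.32), with adjusted p from 0.339 to 0.681 in limma. The array of small cells of 5043 stands apart and has no partner in the ADR outgrowth. The Actb 3′ minus 5′ signal was 1.41 to 1.81 in small cells and 1.26 to 1.33 in the ADR outgrowth. The summed macrophage signal was 8.94 to 9.60 in small cells and 9.59 to 10.70 in the ADR outgrowth, the summed fibroblast signal was 10.63 to 12.17 in small cells and 11.31 to 11.54 in the ADR outgrowth, and the part of these was not tested.

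Between the ADR outgrowth and untreated cells none of the 40 passed, and 0% of all genes did. Cd79a had 6.05 and 6.58 in the ADR outgrowth, against 7.61, 8.04 and 7.39 in untreated cells (-1.39, SE 0.37). Cd22 had 8.54 and 8.46 in the ADR outgrowth, against 10.33, 10.35 and 10.40 in untreated cells (-1.84, SE 0.51). Pax5 had 5.47 and 5.36 in the ADR outgrowth, against 6.07, 6.35 and 5.92 in untreated cells (-0.73, SE 0.22). These 3 genes lay below the untreated range on both outgrowth arrays. Pou2af1 had 9.95 and 11.21 in the ADR outgrowth, against 11.45, 11.83 and 11.46 in untreated cells (-1.01, SE 0.37). It lay below all untreated arrays too, and the adjusted p was 0.999 for all 4 in limma. Groups did not overlap for 9 of 40 genes, against 22.3% of all, and 4 (10%) had an unadjusted p under 0.05, against 4.49%. In the 2 lymphomas with both groups, 5 of 40 lay higher and 16 lower in each, and 41% of all genes had 1 sign in both. Of the other core genes, Syk had 0.72 (SE 0.37), Btk 0.20 (SE 0.32), Blnk 0.07 (SE 0.39), Cd79b -0.30 (SE 0.38), Ebf1 -0.75 (SE 0.55) and Ms4a1 -0.91 (SE 1.86), with adjusted p of at least 0.999 in limma. The summed macrophage signal was 9.59 to 10.70 in the ADR outgrowth, against 8.83 to 9.01 in untreated cells. The Actb 3′ minus 5′ signal was 1.26 to 1.33 in the ADR outgrowth, against 1.39 to 1.65 in untreated cells. Neither overlapped, and their part was not tested.

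The comparisons with untreated cells share the untreated arrays, so they are not independent of each other. Against untreated cells, none of the 40 passed in small cells (0% of all genes) or in big cells (0.412% of all genes). In small cells Cd72 had a difference of -0.79 (SE 0.23, adjusted p = 0.508 in limma), Rasgrp2 of -1.27 (SE 0.56, 0.583), Vpreb3, a protein of immature B cells, of -1.12 (0.601) and Pou2f2 of -0.48 (0.633). In big cells Rasgrp2 had -1.26 (SE 0.56, adjusted p = 0.298), Fcrla, an intracellular immunoglobulin-binding protein, -1.44 (SE 0.65, 0.30), Cd52 0.80 (0.316) and Btk -0.58 (0.325). Rasgrp2 lay at 8.67, 8.90 and 8.73 in big cells and 9.58, 8.56 and 8.10 in small cells, all below the untreated 9.80, 9.89 and 10.37. Vpreb3 had 7.25, 6.98 and 5.84 in small cells, against 7.43, 7.75 and 8.26 in untreated cells. Ms4a1 had 6.30, 5.02 and 7.82, against 6.76, 4.39 and 5.03. The big and small arrays of 5043, the last value each time, are among the 3 that stood apart. Without those 3 arrays the median of the 5 tested precursor genes was 0.30 in small cells, in place of -0.95. In big cells it was -0.04, in place of -0.49. Groups did not overlap for 8 of 40 genes in small cells, against 18.3% of all, and for 9 in big cells, against 29.8%. Within lymphomas, 6 lay higher and 6 lower in all 3 in small cells, where 34.9% of all genes had 1 sign, and 4 higher and 7 lower in big cells, where 41% did. The other core genes lay between -0.42 (Syk) and 0.99 (Ms4a1) in small cells and between -0.59 (Cd79a) and 0.87 (Ms4a1) in big cells. In big cells 5 of 8 fibroblast markers rose, and the part of this in the B cell values was not tested.

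Across all 6 groups in 1 test, none of the 40 passed, against 2.63% of all genes, and 6 passed with array weights, against 23.9%. The lowest adjusted p values in limma were those of Rasgrp2 (0.0915), Cd22 (0.131), Cd72 (0.132), Syk (0.133), Pax5 (0.138), Btk (0.139), Pou2af1 (0.153) and Cd79a (0.176). Of the 40, 8 (20%) had an unadjusted p under 0.05, against 26.9% of all. The 4-OHT change differed between the outgrowth and 5 days for none of the 40 (0% of all genes). On the outgrowth side this test set the sorted small cells against the unsorted ADR outgrowth, and it did not use the big cells, in which Cd72 lay 0.76 higher than in small cells. Pou2af1 had 1.25 (SE 0.49, adjusted p = 0.48 in limma), Cd72 -0.85 (0.485), Spib -2.48 (0.492) and Pou2f2 -0.80 (0.524), with 4 of 40 (10%) at an unadjusted p under 0.05, against 9.49% of all genes.

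Of 84 other genes of the receptor pathway, of B lineage transcription and of the B cell surface, 71 were tested. After ADR with 4-OHT against untreated cells 1 rose and 1 fell, where 2.94% of all genes passed, so the count is near that of genes in general. Nfatc1, a factor that calcium signals from the receptor activate, had 9.06, 9.60 and 8.84 after ADR with 4-OHT, against 7.28, 8.60 and 7.73 in untreated cells, a rise of 1.30 (SE 0.28, adjusted p = 0.0356 in limma, or 0.0554 without the 3 arrays). Klf2, a factor that keeps mature lymphocytes quiescent, had 7.07, 6.38 and 6.61 after ADR with 4-OHT, against 8.50, 7.91 and 8.54 in untreated cells, and fell by 1.63 (SE 0.34, adjusted p = 0.0332). For both the groups did not overlap. In the other 7 comparisons 0 of 71 passed. Nfatc1 had the lowest p among the 71 for ADR with 4-OHT against ADR alone (1.04, adjusted p = 0.221) and for big cells against untreated (1.21, 0.0897), each time followed by another gene, the E protein Tcf4 (0.60, 0.246) and the tetraspanin Cd9 (3.43, 0.154). Cd86, a costimulatory ligand for T cells, had 0.68 (0.359) in big against small cells, -1.36 (0.243) in small cells against the ADR outgrowth, and the lowest p (adjusted 0.508) in small cells against untreated. The second genes there were the NF-kB subunit Relb (0.96, 0.477), the adaptor Dapp1 (-0.77, 0.243) and the inhibitory lectin Siglecg (-0.93, 0.508). Runx1 (-0.77, 0.335) and Cd48 (1.23, 0.374) led for ADR against untreated, and Dapp1 (0.72) and Cux1 (-0.89), both with an adjusted p of 0.999 in limma, for the ADR outgrowth against untreated.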

How the data were processed

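Total RNA was labelled by the one-cycle protocol, per the labels' protocols, and hybridised to Affymetrix mouse arrays. The deposited values are log2 signals, made with RMA and Partek per the submitters' processing notes, with no version given. For each of the 45101 probe sets the 3 lymphoma medians were equal (tolerance 1e-06). Differences in level between lymphomas were thus taken out upstream, by a step not given in the sources used here. Of the probe sets, 34958 had 1 gene symbol, 932 several and 9211 none listed. Of 18 value columns, 17 held values. The number of arrays limits the precision (median SE 0.22 for 3 against 3 arrays over all tested genes). The SEs given above for the B cell genes are mostly larger.

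A model with the 6 groups and a block for lymphoma was fitted to 11897 genes (limma 3.58.1, R 4.3.3), and tests were adjusted by Benjamini-Hochberg at 0.05 in each comparison. The treatment protocol and titles tie the arrays to lymphomas, and removed medians prevent a check of the pairing. The design text names the lymphomas as biological replicates. In each comparison, passing genes were named, or the 4 with the lowest p, and always the core genes Cd79a, Cd79b, Ms4a1, Pax5, Ebf1, Blnk, Syk and Btk. Macrophage, fibroblast, T cell, NK cell, dendritic cell, neutrophil, erythroid and endothelial markers were read as lists. The members and lists were chosen with earlier results of these data known. The method was tested on simulated data. Alternatives were no block, filters, probe set means, other normalisations, variance models, array weights, the compared arrays alone, and leaving out arrays or lymphomas.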

Additional observations from a re-analysis of the deposited data

How the results depend on the processing

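For ADR with 4-OHT against untreated cells, the number of the 40 genes that passed was 1. It was 0 with the mean over probe sets (Rasgrp2 -1.97, adjusted p = 0.0661 in limma), 0 with the compared arrays alone (adjusted p = 0.0866), 2 without the 3 arrays that stood apart (Cd22 and Rasgrp2), 3 without the 4 doubtful arrays (Cd52, Rag2 and Rasgrp2) and 4 with array weights (Blnk, Cd52, Rag2 and Rasgrp2). Leaving out 1 lymphoma or 1 array gave 0 to 1. In the test across the 6 groups it was 0, with 6 under array weights (Btk, Cd22, Cd72, Pou2af1, Rasgrp2 and Syk) and 0 to 1 when 1 lymphoma or array was left out, the 1 being Rasgrp2 without ADR 5 d of 4936. The cause of these moves was not tested. The fit with no replicate block gave 1 gene for ADR with 4-OHT against untreated cells, Rasgrp2 at -2.85 (adjusted p = 0.0146). In the other comparisons the count stayed at 0 under the alternatives run, and no named value changed sign among those called. Over all genes the count for ADR with 4-OHT against untreated cells was 350, with 623 without the block, 0 with the compared arrays alone, 212 with probe set means, 779 without 4 arrays, 1301 with array weights and 0 to 547 when 1 lymphoma or array was left out. For big cells against untreated it was 49, with 112 without the block, 0 with the compared arrays alone, 80 without 3 arrays, 1117 with array weights and 0 to 130 on leaving out. Across the 6 groups it was 313, with 1157 without the block, 1 without 3 arrays, 17 without 4, 2843 with array weights and 0 to 1256 on leaving out. Where it was 0, array weights gave 521, 61 and 10, and the fit without the block 13, 30 and 1, for ADR with 4-OHT against ADR, big against small and ADR against untreated. The 2 or 3 arrays in a group limit the precision, and signals near 4.86 may not be above background.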
